A study of Mus musculus with 40 samples.

Results

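The messenger RNAs of 10 genes that act on methylated lysine 9 of histone H3 (H3K9) were followed in mouse oocytes in which the H3K9 methyltransferase G9A, or both G9A and its partner GLP, had been deleted. They comprised the demethylases Kdm3a, Kdm3b, Jmjd1c, Kdm4a, Kdm4b, Kdm4c and Phf8, and the genes of the heterochromatin protein 1 (HP1) family, Cbx1, Cbx3 and Cbx5. A transcript locus of the RNA-seq table was taken for a gene where the table listed it as overlapping that gene on the gene's own strand, whatever its level. This gave 1 locus each for 9 of the 10 genes among 38540 loci, of which 15023 overlap a named gene on its strand. Jmjd1c had no locus by this rule, and the transcript at its position is described separately. Of the 9 loci, 7 reached a mean of 10 RPM (reads scaled to a library total of 1000000) over the 11 RNA libraries. Kdm4c and Cbx3 stayed below it, and all 9 were tested.

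The oocytes were at the germinal vesicle stage, which precedes meiotic maturation. They were dissected by hand from ovaries of mice aged 22 to 25 days and pooled, with 100 to 200 in each sample. The RNA groups were 3 controls with the title prefix GKAO, 3 samples with a conditional knockout of G9a (G9a cKO) and the same prefix, 3 controls with the prefix GKAQ and 2 samples with a conditional knockout of both G9a and Glp (cDKO) and that prefix. H3K9me2, the dimethylated form of H3K9, was profiled by native chromatin immunoprecipitation in 2 libraries each of control, G9a cKO and cDKO oocytes. The series further holds 15 bisulphite, 6 input and 2 IgG libraries, which were not analysed here. The Cre driver, the strain and the alleles carried by the controls are not given in the sources used here. Nothing says that the libraries of a group came from separate mice, so p-values measure the spread between these pools.

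The genes Ehmt2 and Ehmt1 encode G9A and GLP, a heterodimer that places mono- and dimethylation on H3K9. The KDM3 enzymes (Kdm3a, Kdm3b, Jmjd1c) and PHF8 remove mono- and dimethylation from H3K9. The KDM4 enzymes remove the trimethylated and dimethylated forms of H3K9 and also act on H3K36. HP1 proteins bind methylated H3K9 through a chromodomain and recruit further chromatin factors. In the oocyte these enzymes and readers work without cell division, in chromatin that is silenced as the cell reaches full size.

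The library totals inferred from the scaled values were 1458868 to 2399680 reads for RNA and 1109191 to 19128881 for H3K9me2. Ehmt1 stood at 54.5 to 90.5 RPM in the 9 libraries that were not cDKO and at 17.7 and 21.3 RPM in cDKO. Its change in cDKO was -2.06 ± 0.20 on the log2 scale (SE; limma, adjusted p = 1.09e-21). Ehmt2 had few reads everywhere, with 9 to 13 in GKAO controls, 5, 11 and 2 in G9a cKO, 8 to 30 in GKAQ controls and 5 in each cDKO library. The library labelled G9a cKO replicate 2 is the one with 11 Ehmt2 reads (6.01 RPM), which lies within its controls (5.27 to 8.23 RPM). Which part of the gene was deleted is not given in the sources used here, so this count checks the label only in part. Changes in G9a cKO that passed a test, and that of Kdm4b, are also given without it, and in that case none of the 9 genes was called in G9a cKO. All 11 matched oocyte markers were read in every group, summing to 16506 to 20311 RPM per library. Of their 12 loci, 3 were called higher and 1 lower in G9a cKO, and 4 and 2 in cDKO. In GKAQ over GKAO controls 3 were called higher and 3 lower. Over all loci 1.79%, 6.34% and 3.87% were called in these comparisons, in the same order. The 13 granulosa cell markers summed to 185 to 196 RPM in GKAO controls, 137 to 162 in G9a cKO, 134 to 159 in GKAQ controls and 117 to 145 in cDKO. Most of each sum came from Nr5a2 (group means of 122, 100, 79.5 and 70.1 RPM in the same order) and Cyp19a1 (41.3, 26.3, 47.3 and 29.5 RPM). Among the 13 markers Inha and Fshr passed the test as higher in cDKO, and none passed as lower. Inha stood at 0.986 to 4.17 RPM in GKAQ controls and at 6.83 and 10.1 RPM in cDKO. Fshr stood at 0.628 to 2.50 RPM and at 5.34 and 9.11 RPM in the same order. Inha and Nr5a2 were also called lower in GKAQ than in GKAO controls, where Inha stood at 5.48 to 7.33 RPM. Foxl2, a defining granulosa marker, was at 0 in GKAO controls and at 0 to 0.986 RPM in GKAQ controls. It stood at 0.471 to 0.835 RPM in G9a cKO and at 0 and 2.37 RPM (0 and 4 reads) in cDKO. Amhr2 and Gatm, of the same list, were at 0 in cDKO and at no more than 0.493 RPM in GKAQ controls. The part of these markers in the results was not tested. The 5 matched theca and stroma markers summed to at most 5.00 RPM, with Col3a1 at 0 in every group, and both matched haemoglobin genes were at 0 throughout.

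RefSeq promoter sequences of Kdm3a and Cbx3, the 2 genes that passed the test in a mutant, and of Kdm4a, whose level was among the steadiest, are shown for their CG content. Each is the 250 bases before a RefSeq start (GRCm38.p6), 5′ to 3′ on the gene's strand, with every CG in capitals. RefSeq gives 3 starts for Kdm3a, 2 for Cbx3 and 1 for Kdm4a, and the start nearest to that of the table's locus was taken. It lies inside the locus by 409 bases at Kdm3a, 256 at Cbx3 and 46 at Kdm4a. The Kdm3a and Cbx3 stretches are therefore within the loci as tested, and they need not be the promoters that oocytes use.
Kdm3a, chr6:71632918-71633167, minus strand: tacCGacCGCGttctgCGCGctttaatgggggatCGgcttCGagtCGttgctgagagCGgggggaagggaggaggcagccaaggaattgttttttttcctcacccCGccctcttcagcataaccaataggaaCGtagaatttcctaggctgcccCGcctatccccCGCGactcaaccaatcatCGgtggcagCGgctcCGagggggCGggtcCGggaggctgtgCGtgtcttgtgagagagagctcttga
Cbx3, chr6:51470366-51470615, plus strand: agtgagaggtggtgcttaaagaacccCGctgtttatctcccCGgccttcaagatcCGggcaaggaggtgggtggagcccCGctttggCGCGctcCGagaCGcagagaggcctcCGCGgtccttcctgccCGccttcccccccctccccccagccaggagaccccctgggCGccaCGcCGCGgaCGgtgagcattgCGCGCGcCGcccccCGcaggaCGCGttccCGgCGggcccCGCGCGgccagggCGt
Kdm4a, chr4:118180044-118180293, minus strand: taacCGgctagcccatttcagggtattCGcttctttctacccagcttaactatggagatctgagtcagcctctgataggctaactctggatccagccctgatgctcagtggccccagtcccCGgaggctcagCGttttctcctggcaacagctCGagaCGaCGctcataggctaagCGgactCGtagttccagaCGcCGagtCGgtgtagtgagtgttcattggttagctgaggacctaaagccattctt
The Kdm3a sequence holds 20 CG, and 17.9% of the 32851 RefSeq promoters of that length hold as many or more. Cbx3 holds 29 CG, a number reached by 6.78%, and Kdm4a 12, reached by 33.5%. RefSeq entries matched 8 of the 10 genes, none of them Kdm3b or Kdm4b. The other four of the tested genes with an entry were CG-rich too, with 16 CG at Cbx1, 19 each at Kdm4c and Phf8 and 22 at Cbx5, against a median of 6 over all promoters. The letters GGGCGG, a GC box, were found on either strand in Kdm3a, Phf8, Cbx1, Cbx3 and Cbx5 and not in Kdm4a or Kdm4c, against 32.7% of all promoters. ACGTG, the core of the hypoxia response element, was found in Kdm4c, Phf8 and Cbx5, against 16.6% of all. Both motifs contain a CG, and all of these genes' sequences hold more CG than the median promoter. Shares for promoters of like CG content were not computed, so no enrichment of either motif is concluded.

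Kdm3a was the one gene of the 9 that passed the test in cDKO oocytes, where its RNA was 2.73-fold higher. KDM3A is an H3K9me2 demethylase best known for its role in spermatid maturation and metabolism. Its locus lies at chr6:71588974-71633326 on the minus strand and spans the annotated gene. Kdm3a stood at 15.8, 8.90 and 16.4 RPM in the GKAO controls, at 17.1, 14.7 and 12.2 RPM in G9a cKO, at 15.1, 12.1 and 11.3 RPM in the GKAQ controls, and at 35.9 and 33.8 RPM in cDKO. Both cDKO libraries lay above all 9 others, which overlapped one another. In reads, this was 63 and 57 against 17 to 41. In pooled oocytes, a change in all cells and a change in some of them cannot be told apart, nor can fewer cells of a type and less RNA per cell. The log2 fold change of cDKO over GKAQ controls was 1.45 ± 0.34 (SE; 95% interval 0.79 to 2.11; limma, adjusted p = 0.000865). The call held in all 12 alternatives that were run, with adjusted p-values of 0.00018 to 0.0365. Among all loci 6.34% were called in this comparison and 4.32% were called higher, and among loci with a mean of at least 10 RPM the shares were 15.8% and 8.63%.

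In G9a cKO the change of Kdm3a was 0.14 ± 0.30 (SE; 95% interval -0.45 to 0.73; limma, adjusted p = 0.764). The direct test of whether the cDKO effect exceeded the G9a cKO effect gave a log2 difference of 1.31 ± 0.45 (SE; unadjusted p = 0.00384; limma, adjusted p = 0.161). In that test 1.08% of all loci were called, and 367 of 9091 when only loci with a mean of at least 10 RPM were fitted. The difference therefore did not pass when all loci were accounted for, and it passed in 1 of 16 alternatives, without GKAQ control replicate 1 (1.43, limma, adjusted p = 0.0178). Without the library labelled G9a cKO replicate 2 it was 1.32 (limma, adjusted p = 0.0953). The single alternative that passed called 38.2% of loci. Its median log2 difference was 0.63 when every locus counted, but 0.015 among those with a mean of at least 10 RPM. A pass in that fit therefore says little about Kdm3a itself.

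**Figure D1:**
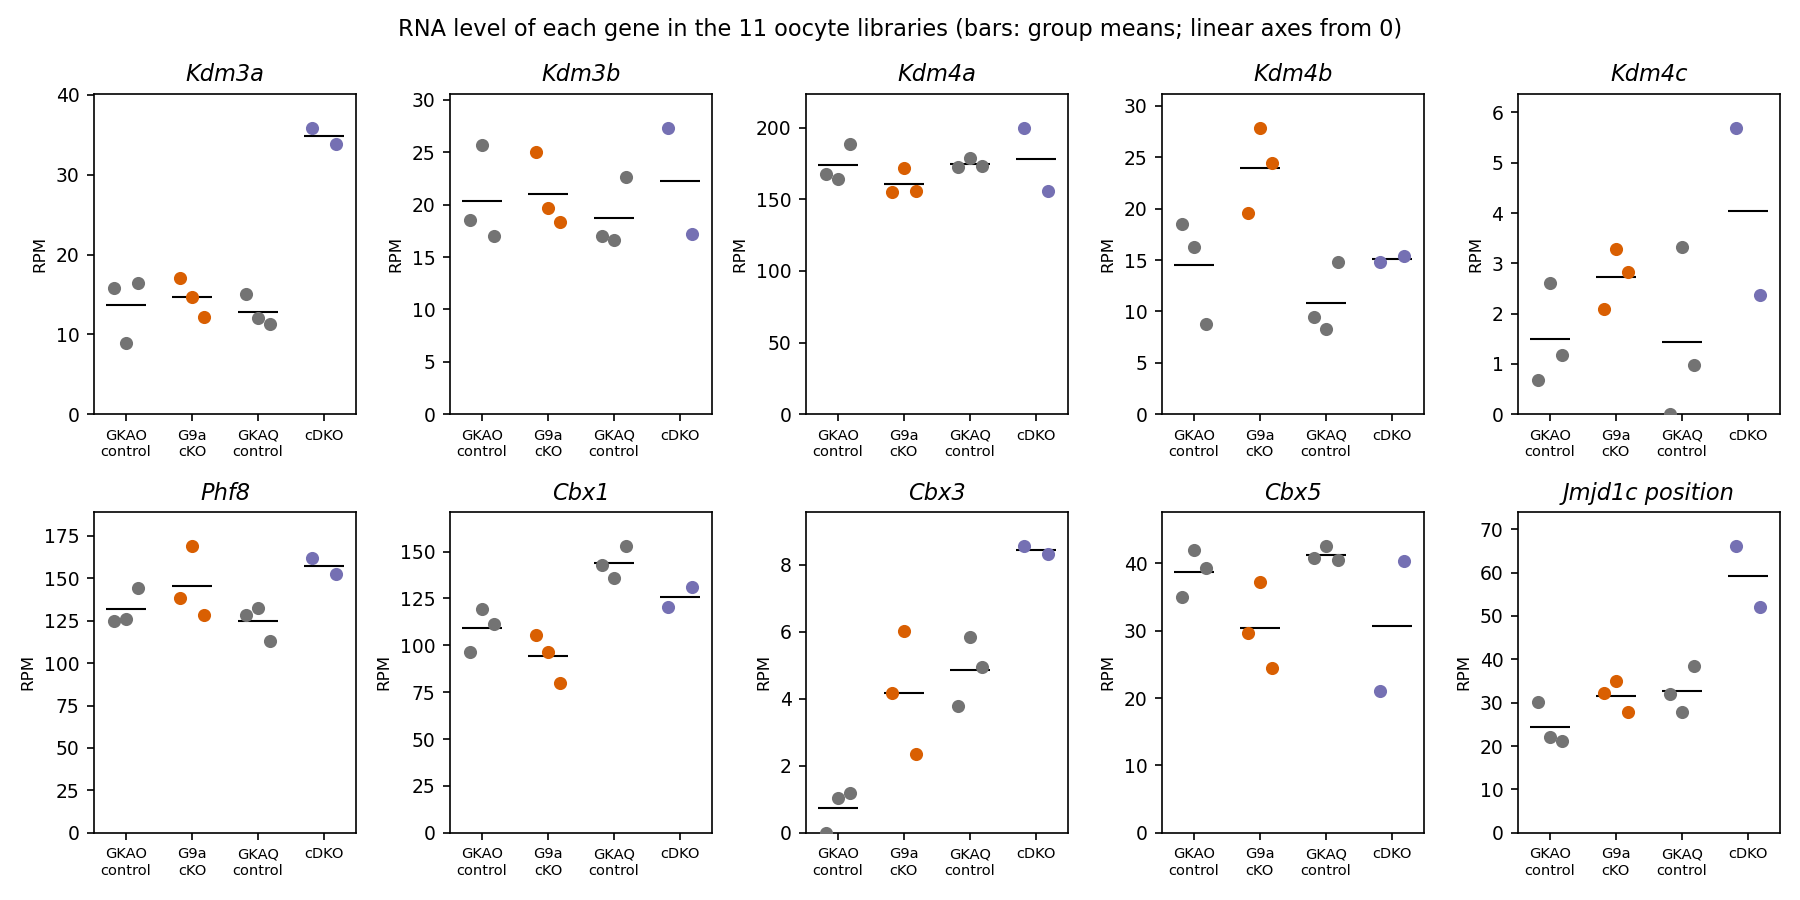
RNA level (RPM, linear axes from 0) of the 9 genes and of the transcript at the Jmjd1c position, 1 point per library and a bar at the mean of each group. Kdm3a stands at 35.9 and 33.8 RPM in cDKO against 8.90 to 17.1 RPM in the other libraries, and Cbx3 at 0 to 1.17 RPM in GKAO controls against 2.35 RPM or more elsewhere.

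Kdm3b, the closest relative of Kdm3a (chr18:34777008-34839370, plus strand), overlapped between all groups. It stood at 18.5, 25.7 and 17.0 RPM in GKAO controls, 25.0, 19.7 and 18.4 RPM in G9a cKO, 17.0, 16.7 and 22.7 RPM in GKAQ controls and 27.3 and 17.2 RPM in cDKO. Its log2 fold changes were 0.05 (95% interval -0.48 to 0.59) in G9a cKO and 0.22 (-0.38 to 0.82) in cDKO. These intervals leave room for a change of moderate size in either direction. An antisense locus within Kdm3b had 0 to 11 reads per library.

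Jmjd1c, the third KDM3 gene, had no locus under its own name. A transcript at chr10:67096052-67256318 on the plus strand covers 99.995% of the RefSeq span of Jmjd1c, yet the table annotates it to the neighbouring gene Reep3, which lies on the other strand. It was chosen after its values were seen and is outside the rule. This transcript stood at 30.2, 22.0 and 21.1 RPM in GKAO controls, 32.1, 35.0 and 27.8 RPM in G9a cKO, 32.1, 27.9 and 38.4 RPM in GKAQ controls and 66.0 and 52.2 RPM in cDKO. Both cDKO libraries lay above all others. The change in cDKO was 0.85 ± 0.25 (SE; 1.80-fold; limma, adjusted p = 0.0151), and that in G9a cKO 0.39 ± 0.22 (SE; limma, adjusted p = 0.23). The cDKO call was lost in 4 of 12 alternatives, namely without cDKO replicate 1 (0.68, limma, adjusted p = 0.298), without GKAQ control replicate 2 (0.74, adjusted p = 0.114), under log2(RPM + 1) (0.83, adjusted p = 0.079) and without limma's variance trend (0.85, adjusted p = 0.0888).

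By a fixed rule, the named loci whose log2 RPM followed Kdm3a most closely over the 11 libraries, among 6939 with a mean of at least 10 RPM, were Mapk4 (Pearson r = 0.960), Utp14a (0.938) and Pigy (0.933). Mapk4 encodes an atypical MAP kinase, Utp14a a factor of ribosomal RNA processing and Pigy a subunit of the first enzyme of GPI anchor synthesis. The points share libraries and groups, so these correlations describe the 11 libraries and carry no test.

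Of the KDM4 genes, none passed the test in either mutant. Kdm4a (chr4:118136955-118180089, minus strand), which encodes an H3K9me3 and H3K36me3 demethylase, stood at 168, 164 and 189 RPM in GKAO controls, 155, 172 and 156 RPM in G9a cKO, 173, 179 and 173 RPM in GKAQ controls and 200 and 156 RPM in cDKO. Each mutant overlapped its controls. Its changes were -0.11 (95% interval -0.34 to 0.12) in G9a cKO and 0.01 (-0.24 to 0.27) in cDKO, the narrowest intervals of the set. In cDKO the sign turned when libraries were centred on their median (-0.080). A change the size of that of Kdm3a lies outside both intervals.

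Kdm4b (chr17:56325959-56403080, plus strand) stood at 18.5, 16.2 and 8.79 RPM in GKAO controls and at 19.6, 27.9 and 24.5 RPM in G9a cKO, so that the groups did not overlap. It stood at 9.43, 8.33 and 14.8 RPM in GKAQ controls and at 14.8 and 15.4 RPM in cDKO, where the lowest mutant and highest control libraries nearly touched. The change in G9a cKO was 0.78 ± 0.31 (SE; unadjusted p = 0.0117; limma, adjusted p = 0.23). Without the library labelled G9a cKO replicate 2 it was 0.67 (limma, adjusted p = 0.15). Against all 6 controls taken as 1 group it was 0.98 and passed (limma, adjusted p = 0.0304), but it did not pass there without that library (0.86, adjusted p = 0.259). In cDKO the change was 0.52 (95% interval -0.16 to 1.20).

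Kdm4c (chr4:74251675-74405860, plus strand) was close to the limit of detection. It had 1, 5 and 2 reads in GKAO controls, 5, 6 and 6 in G9a cKO, 0, 8 and 2 in GKAQ controls and 10 and 4 in cDKO. The groups overlapped in both comparisons. The log2 fold change in cDKO was 1.58, with a 95% interval of 0.08 to 3.07, and it did not pass after adjustment over all loci (limma, adjusted p = 0.265).

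Phf8 (chrX:151520661-151635484, plus strand), a PHD finger demethylase of H3K9me2 and H4K20me1 mutated in X-linked intellectual disability, was well read. It stood at 125, 126 and 144 RPM in GKAO controls, 139, 169 and 128 RPM in G9a cKO, 128, 133 and 113 RPM in GKAQ controls and 162 and 152 RPM in cDKO. The cDKO libraries lay above their controls, and the G9a cKO libraries overlapped theirs. Its changes were 0.34 (95% interval 0.06 to 0.61; unadjusted p = 0.0166; limma, adjusted p = 0.154) in cDKO and 0.13 (-0.11 to 0.38) in G9a cKO.

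Among the HP1 genes, Cbx3 was called higher in G9a cKO, where 1.79% of all loci were called and 1.05% were called higher. HP1γ, its product, is the HP1 protein most often found in active genes as well as in heterochromatin. The locus at chr6:51470360-51483704 (plus strand) had 0, 2 and 2 reads in GKAO controls (0, 1.05 and 1.17 RPM), 10, 11 and 5 in G9a cKO (4.17, 6.01 and 2.35 RPM), 6, 14 and 10 in GKAQ controls (3.77, 5.83 and 4.93 RPM) and 15 and 14 in cDKO (8.54 and 8.30 RPM). The GKAO controls lay below and the cDKO libraries above all others, while the G9a cKO libraries (2.35 to 6.01 RPM) overlapped the GKAQ controls (3.77 to 5.83 RPM). Measured against 3 reads in the shallowest GKAO control, Cbx3 was at least 1.89-fold higher in G9a cKO (fitted log2 change 2.10 ± 0.58 SE; limma, adjusted p = 0.0225). By the same measure it was at least 2.32-fold higher in GKAQ than in GKAO controls (fitted 2.39 ± 0.58 SE; limma, adjusted p = 0.002), a comparison of controls in which 3.87% of loci were called.

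The G9a cKO call of Cbx3 rested on the choice of controls and on single libraries. Against all 6 controls as 1 group the change was 0.90 (limma, adjusted p = 0.409), and the call was lost in 9 of 14 alternatives. These included the fits without GKAO control replicate 1 (1.81, limma, adjusted p = 0.108), without G9a cKO replicate 1 (2.04, adjusted p = 0.0986) and without the library labelled G9a cKO replicate 2 (1.78, adjusted p = 0.128). In cDKO the change of Cbx3 was 0.82 ± 0.65 (SE; 95% interval -0.45 to 2.09; limma, adjusted p = 0.565), and both cDKO libraries lay above their controls. Against all 6 controls this change was 2.01 and passed (limma, adjusted p = 0.0175). The difference between the effects was -1.27 ± 0.87 (SE; limma, adjusted p = 0.271). RefSeq lists 6 pseudogene symbols for Cbx1, Cbx3 and Cbx5, and how reads with several matches were counted is not given in the sources used here. A locus on the other strand overlaps the start of Cbx3 with 369 to 652 reads, and reads at that overlap cannot be told apart without strand.

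Cbx1 (chr11:96789078-96810658, plus strand), which encodes HP1β, stood at 96.7, 119 and 111 RPM in GKAO controls, 106, 96.7 and 80.0 RPM in G9a cKO, 143, 136 and 153 RPM in GKAQ controls and 121 and 131 RPM in cDKO. Both control groups were apart, with GKAQ higher by 0.40 ± 0.13 (SE; unadjusted p = 0.00289; limma, adjusted p = 0.0682), and this passed when only loci with a mean of at least 10 RPM were tested (adjusted p = 0.0178). The mutant changes were -0.22 (95% interval -0.48 to 0.05) in G9a cKO and -0.19 (-0.49 to 0.10) in cDKO. Neither passed the test, although both cDKO libraries lay below their controls.

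Cbx5 (chr15:103191460-103239983, minus strand), which encodes HP1α, stood at 35.0, 41.9 and 39.3 RPM in GKAO controls, 29.6, 37.1 and 24.5 RPM in G9a cKO, 40.9, 42.5 and 40.4 RPM in GKAQ controls and 21.1 and 40.3 RPM in cDKO. The cDKO libraries differed from each other by more than any control pair, and replicate 2 lay just under its controls. The change in cDKO was -0.50 ± 0.24 (SE; limma, adjusted p = 0.272), which became -0.97 without cDKO replicate 2 (adjusted p = 0.0343) and -0.03 without cDKO replicate 1. In G9a cKO the change was -0.36 (95% interval -0.79 to 0.06). A locus on the other strand overlaps the start of Cbx5 with 122 to 235 reads.

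**Figure D2:**
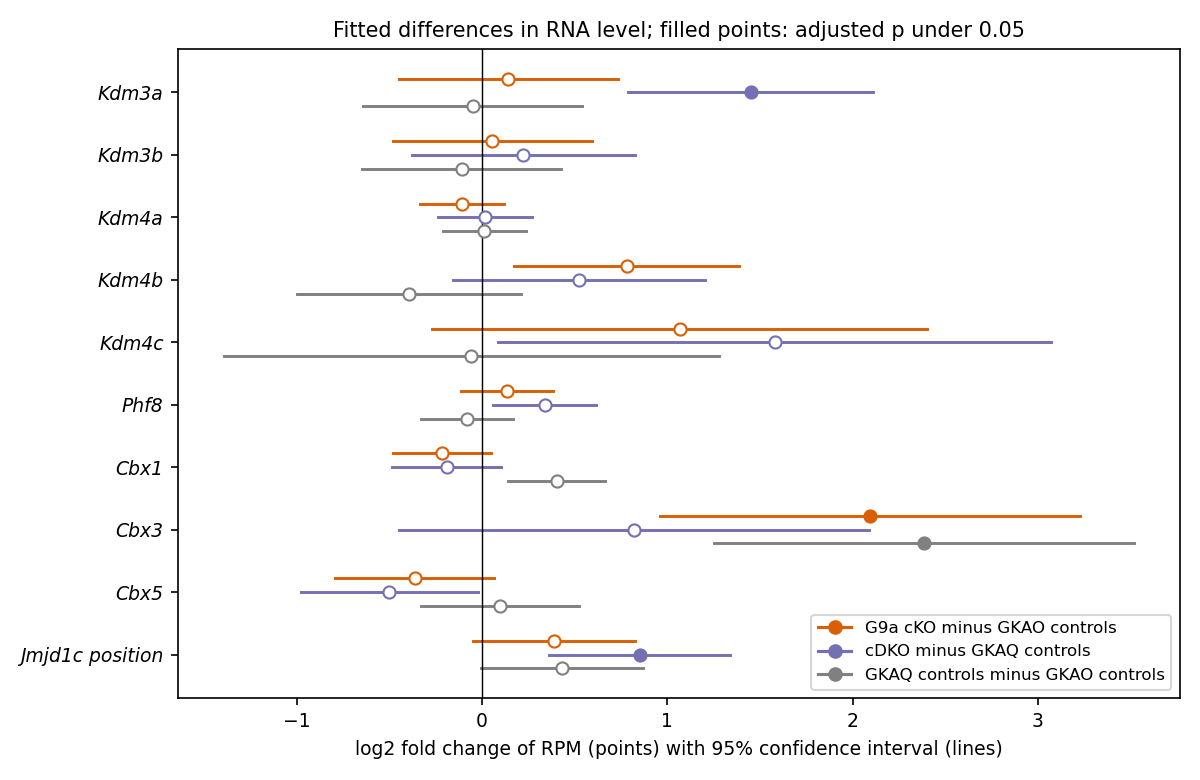
Fitted log2 fold change of RNA (x axis) with its 95% interval for each gene (y axis), for G9a cKO over GKAO controls, cDKO over GKAQ controls, and GKAQ over GKAO controls; filled points passed the test (adjusted p under 0.05). Kdm3a (1.45) and the transcript at the Jmjd1c position (0.85) are filled for cDKO, and Cbx3 is filled for G9a cKO (2.10) and for the comparison of controls (2.39).

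As a set, 1 of 9 genes was called higher and none lower in each mutant, where 1.05% (G9a cKO) and 4.32% (cDKO) of all loci were called higher. In limma's test of the difference 0 of 9 were called, against 1.08% of loci. At unadjusted p under 0.05 that last test gave 1 gene of 9, Kdm3a, against 13.3% of loci. Fitted on only the 9091 loci with a mean of at least 10 RPM, it called 367 and gave 1695 at unadjusted p under 0.05. The median log2 fold change of the 9 genes was 0.13 in G9a cKO and 0.34 in cDKO, against 0.01 and 0.05 over loci with a mean of at least 10 RPM. The 9 include Kdm4c and Cbx3, which lie under that level, so the sides are not alike. With low and empty loci kept in, the medians were -0.31 (G9a cKO) and 0.20 (cDKO). No shift of the set is concluded from these medians. In cDKO the libraries lay above all their controls for 4 genes (Kdm3a, Kdm4b, Phf8 and Cbx3) and below them for 2 (Cbx1 and Cbx5), where 20.4% and 10.1% of loci with a read did so. In G9a cKO they lay above for 2 genes (Kdm4b and Cbx3) and below for none, against 7.67% and 10.4%. Of the 29905 loci with a read, 9091 reached a mean of 10 RPM, as did all of the 9 genes but Kdm4c and Cbx3. Here too the sides are not alike, and these counts were not tested.

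Other genes of the same machinery gave the setting. Over all loci 1.05% were called higher and 0.737% lower in G9a cKO, 4.32% and 2.02% in cDKO, and 1.96% were called higher in GKAQ than in GKAO controls. Among loci with a mean of at least 10 RPM these shares were 2.84%, 2.39%, 8.63%, 7.18% and 7.42% in the same order. Of 20 other demethylases and JmjC proteins, 12 had a locus. In G9a cKO 1 of these rose and none fell. This was Jarid2, a JmjC protein without demethylase activity that binds Polycomb complex 2, at 228, 198 and 226 RPM in controls and 251, 359 and 347 RPM in G9a cKO (0.54 ± 0.10 SE; limma, adjusted p = 5.74e-05). The change was 0.45 with the library labelled G9a cKO replicate 2 left out (limma, adjusted p = 0.0251). The call was lost in 3 of 15 alternatives, under log2(RPM + 1) (limma, adjusted p = 0.205), without the variance trend (0.279) and with precision weights (0.115). In cDKO Jmjd6 rose by 0.47 (limma, adjusted p = 0.0349) and Kdm6a, an H3K27 demethylase, fell by 0.52 (adjusted p = 0.00781). Both calls were lost without cDKO replicate 1, where the changes were 0.22 and -0.39, and that of Jmjd6 also without any 1 GKAQ control (0.42 to 0.51). In all, the Jmjd6 call was lost in 9 of 12 alternatives and the Kdm6a call in 3 of 12. The list medians were -0.11 in G9a cKO and -0.02 in cDKO.

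Of 13 H3K9 methyltransferases and their partners, 9 genes were matched by 12 loci. None passed in G9a cKO. In cDKO 3 fell and none rose, namely Ehmt1 itself, Prdm16 by 0.66 (limma, adjusted p = 0.0261) and Atf7ip, a stabilising partner of SETDB1, by 0.46 (adjusted p = 0.0036). The Prdm16 call was lost without either cDKO library (-0.68 without replicate 1 and -0.64 without replicate 2) and without GKAQ control replicate 2 (-0.59) or 3 (-0.68), and the Atf7ip call without cDKO replicate 1 (-0.28). Each of these 2 calls was lost in 5 of 12 alternatives, and that of Ehmt1 in none. Ehmt2 itself changed by -1.55 ± 0.51 in G9a cKO (SE; limma, adjusted p = 0.0971), and by -2.25 without the library labelled G9a cKO replicate 2 (adjusted p = 0.0154). In cDKO its change was -1.45 ± 0.57 (SE; limma, adjusted p = 0.121).

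Of 21 other readers of H3K9 methylation and HP1 partners, 17 had a locus. In G9a cKO 1 rose, the remodelling ATPase Chd4, from 802 to 876 RPM in controls to 942 to 1024 RPM (0.22 ± 0.06 SE; limma, adjusted p = 0.022). In cDKO 3 fell and 1 rose. Chaf1a, the large subunit of the CAF-1 histone chaperone and a direct HP1 partner, stood at 1094, 896 and 924 RPM in GKAQ controls and at 690 and 570 RPM in cDKO (-0.63 ± 0.07 SE; limma, adjusted p = 5e-17). Cdyl, a chromodomain reader, fell by 0.58 (adjusted p = 0.02) and the cohesin loader Nipbl fell by 0.31 (adjusted p = 0.0378), while Daxx, an H3.3 chaperone, rose by 0.65 (adjusted p = 0.0116). Cdyl and Nipbl were among 5 genes of this list that were higher in GKAQ than in GKAO controls, with Atrx, Incenp and Mphosph8, and against all 6 controls their changes were -0.28 (adjusted p = 0.596) and -0.16 (adjusted p = 0.633). Without cDKO replicate 1 the calls of Cdyl (-0.41), Nipbl (-0.13) and Daxx (0.54) were lost, and the Chd4 call was lost without G9a cKO replicate 1 (0.19) and without the library labelled G9a cKO replicate 2 (0.22). Other single libraries also ended calls: GKAQ control 2 for Cdyl and Daxx, GKAQ control 3 for Cdyl and Nipbl, GKAQ control 1 for Nipbl and Daxx, and GKAO controls 1 and 3 for Chd4. In all, the call of Chaf1a was lost in 1 of 12 alternatives (without the variance trend, limma, adjusted p = 0.0877), those of Cdyl and Daxx in 5, that of Nipbl in 7, and that of Chd4 in 9 of 15.

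**Figure D3:**
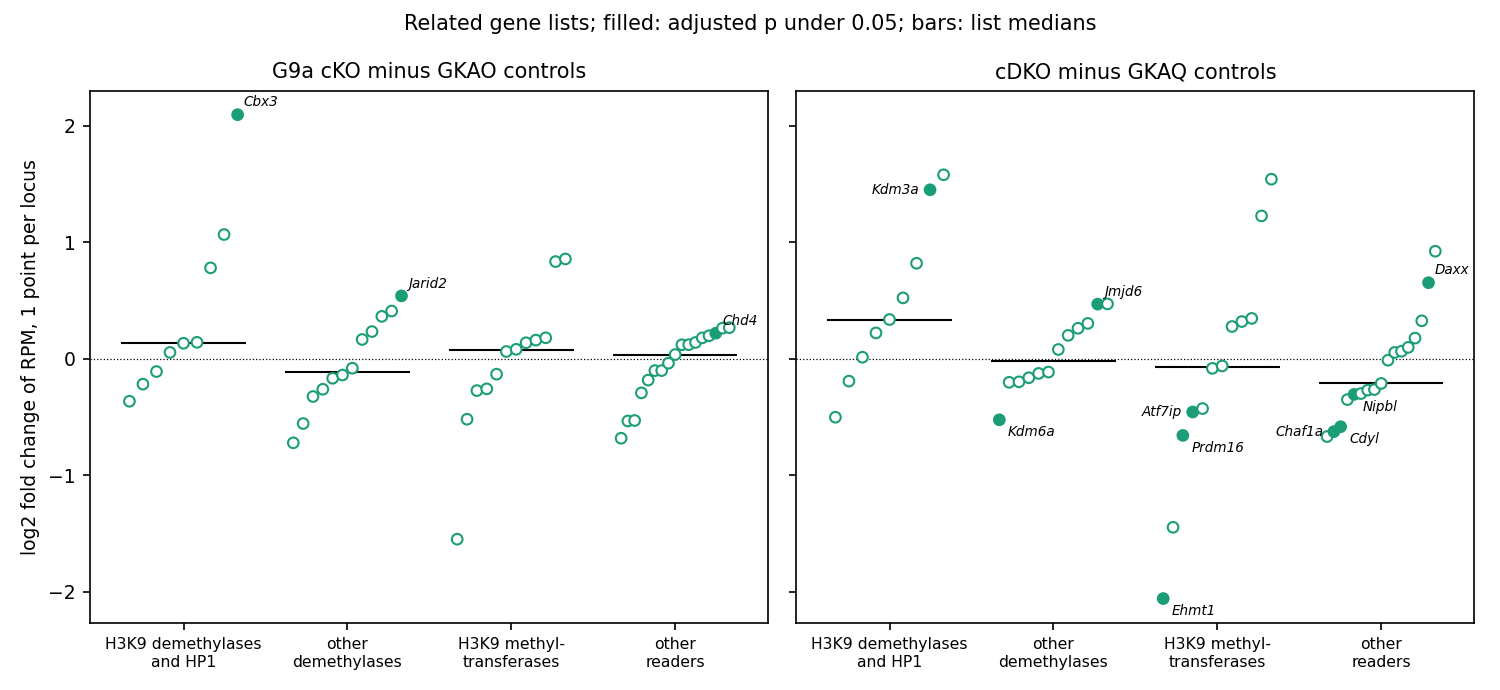
Log2 fold change of RNA (y axis) for each locus of the H3K9 demethylases and HP1 genes and of 3 related lists in G9a cKO (left) and cDKO (right), with list medians as bars and named, filled points where the adjusted p is under 0.05. Kdm3a (1.45) is the highest filled point in cDKO and Ehmt1 (-2.06) the lowest.

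The H3K9me2 signal was not part of the rule that picked the loci. Values are RPM in windows of 10 kb, without correction for the input or IgG libraries. They show how the precipitated reads were spread over the genome, and not the total amount of the mark. The inferred library totals were 7048784 and 19128881 reads for the controls, and between 1109191 and 1881848 for each mutant library. Depth and genotype therefore cannot be told apart in these comparisons. The 9 genes overlap 67 windows. In controls their mean signal was at or below the genome mean of 3.96 to 3.98 RPM per window in 8 of 9 genes, from 2.71 RPM at Phf8 to 3.60 RPM at Kdm3a, while Kdm4b stood at 4.01 RPM. These levels fall at the 11.1 percentile (Phf8) to the 49.6 percentile (Kdm4b) of control windows.

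Over Kdm3a, where RNA was higher in cDKO, H3K9me2 read 3.38 and 3.83 RPM per window in controls, 3.41 and 5.11 RPM in G9a cKO and 3.68 and 4.07 RPM in cDKO. Each mutant overlapped the controls. None of its 6 windows was called in either mutant, and the median log2 change was 0.02 in G9a cKO and 0.06 in cDKO. The window that holds the Kdm3a start read 3.69 and 5.12 RPM in controls and 5.22 and 4.25 RPM in cDKO, a change of 0.12 (limma, adjusted p = 0.946). In G9a cKO the same window read 7.00 and 9.92 RPM, above both controls, a change of 0.94 that was the highest of the 6 windows and did not pass (limma, adjusted p = 0.191).

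Over Cbx3 the signal was 2.84 and 3.22 RPM per window in controls, 6.19 and 7.21 RPM in G9a cKO and 6.67 and 3.19 RPM in cDKO, from 2 windows. The G9a cKO libraries lay above the controls, on 12 to 23 reads in each mutant library and 40 and 123 in controls, and neither window passed the test (smallest limma adjusted p = 0.208). Phf8 was above its controls in both mutants, with 2.88 and 2.54 RPM in controls, 4.67 and 4.28 RPM in G9a cKO and 5.22 and 4.07 RPM in cDKO. Kdm4c was lower in G9a cKO, at 2.32 and 2.25 RPM against 3.31 and 2.95 RPM, and overlapped in cDKO (3.23 and 3.82 RPM).

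**Figure D4:**
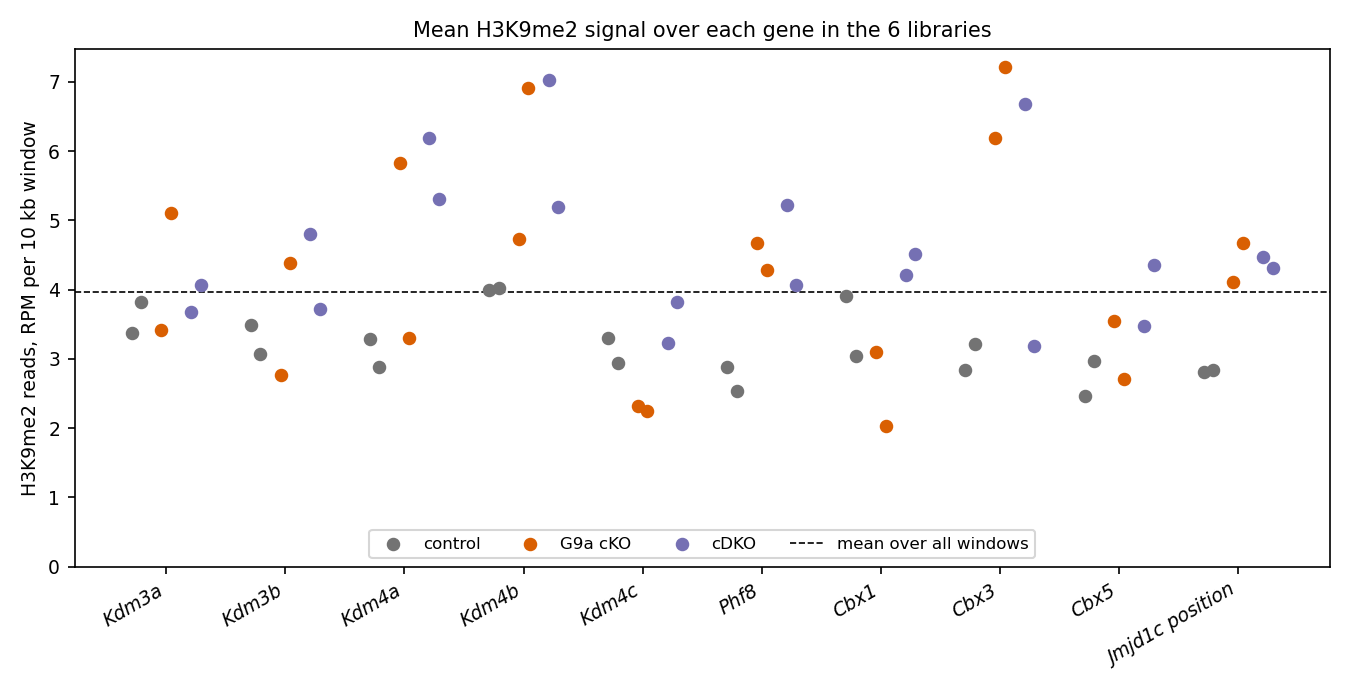
Mean H3K9me2 signal over each gene (y axis, RPM per 10 kb window, from 0) in the 2 libraries of each genotype, with the mean over all windows as a dashed line. Control points lie between 2.47 and 4.03 RPM, and Kdm3a stays between 3.38 and 5.11 RPM in all 6 libraries.

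A single window of the 67 was called, in G9a cKO and higher. It lies within Kdm4b at chr17:56350001-56360000 and read 4.97 and 4.18 RPM in controls, 12.9 and 15.3 RPM in G9a cKO and 13.9 and 8.50 RPM in cDKO. The change in G9a cKO was 1.63 ± 0.30 (SE; limma, adjusted p = 0.0413), on 17 and 24 reads in the G9a cKO libraries. The call was lost without H3K9me2 control replicate 2 and without G9a cKO replicate 2. Over all windows 1.85% were called in G9a cKO. In cDKO limma called 0 of 255057 windows, and 22952 had an unadjusted p under 0.05, 8 of them among the 67.

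In cDKO 53 of the 67 windows were higher than in controls, with a median log2 change of 0.44 against -0.09 over all windows, of which 44.1% were higher. In G9a cKO 40 of 67 were higher, with a median of 0.13 against -0.22 and 39.7%. As means over whole genes, 6 of the 9 genes lay above both controls in both cDKO libraries (Kdm3b, Kdm4a, Kdm4b, Phf8, Cbx1 and Cbx5), where 41.5% of all 14982 gene loci did so. In G9a cKO this held for 4 genes (Kdm4a, Kdm4b, Phf8 and Cbx3) against 31.6%, and 1 gene, Kdm4c, lay below against 27.9%. The shares over all windows include windows outside genes, and many of the 67 windows are neighbours within the same gene. The sides are therefore not alike, and no test was made of these counts.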

How the data were processed

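RNA-seq and H3K9me2 tables were deposited by the authors as log2 values with 1 column per library. The unit is not stated and was inferred: per library, all values are log2 of whole multiples of 1 step, within 1%, and empty features sit at 0.9 read, as for reads scaled to 1000000 per library. The submitters' processing notes name Trim Galore, Bowtie2, HISAT2 2.1.0, Bismark 0.19.0 and GRCm38. The counting method, use of strand and filters are not given in the sources used here. Another locus lies on the opposite strand of 33.2% of loci. Of the H3K9me2 columns, 4 match no sample and were not used, and 1 RNA row without an identifier was left out.

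Group means were modelled for all 11 RNA libraries at once, and separately for the 6 H3K9me2 libraries (windows with a read), with limma 3.58.1 (trend, robust; statmod 1.5.0) in R 4.3.3 (data.table version 1.17.8). P-values are two-sided, adjusted by Benjamini-Hochberg over all features and called under 0.05. Fold changes are on the log2 RPM scale, where the 0.9 read given to empty loci limits folds of low genes. Intervals are at 95%. Where a group had at most 3 reads in each library, the fold is a bound against 3 reads in its shallowest library. Python 3.11.15 (pandas 2.3.3, matplotlib 3.10.9) made the tables and plots, and the fits were tested on simulated data. The 10 genes and the related lists were chosen with earlier results of these data known. Named genes are these 10, Ehmt1, Ehmt2, the related genes called in either mutant, and the 3 loci most correlated with Kdm3a. Jmjd1c's position, the cell markers named singly, and the related genes called between controls were named after their values were seen. Levels are not compared between genes, since no transcript lengths were used.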

Additional observations from a re-analysis of the deposited data

Results flagged for a closer look

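For 3 of the related genes the effect in cDKO differed from that in G9a cKO by limma's test of the difference itself. Ehmt1 differed by -2.14 on the log2 scale (limma, adjusted p = 1.98e-11), and it is the gene deleted in cDKO and not in G9a cKO. Jarid2, which rose in G9a cKO, stood at 192, 205 and 208 RPM in GKAQ controls and at 190 and 163 RPM in cDKO, and its effects differed by -0.74 (limma, adjusted p = 0.000753). Chaf1a changed by -0.04 in G9a cKO and by -0.63 in cDKO, a difference of -0.59 (limma, adjusted p = 3.25e-07). The Ehmt1 difference passed in all 16 alternatives. The differences of Jarid2 and Chaf1a each passed in 13 of 16 and were lost under log2(RPM + 1), without the trend, and with precision weights. With the library labelled G9a cKO replicate 2 left out, the differences were -2.09, -0.64 and -0.63 for Ehmt1, Jarid2 and Chaf1a, and all passed (limma, adjusted p = 3.64e-09, 0.0253 and 5.96e-07). Over all loci 1.08% were called in this test, and 367 of 9091 when only loci with a mean of at least 10 RPM were fitted.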

How the results depend on the processing

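The change of Kdm3a in cDKO kept its direction and its call in all 12 alternatives run (1.36 to 1.57). Of 529 values for single genes under the alternatives, 441 kept direction and side of the threshold, 72 lost the call, 8 gained it and 8 changed sign. The sign changes all concerned values that did not pass. Kdm4a in cDKO became -0.080 with libraries centred on their median, and Cbx1 in cDKO became 0.0093 against all 6 controls. With 1 library left out at a time, Kdm3a in G9a cKO ran from -0.14 to 0.30, Kdm3b in G9a cKO from -0.078 to 0.23, Kdm3b in cDKO from -0.11 to 0.56 and Kdm4a in cDKO from -0.17 to 0.19.

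Shares of loci called moved more. In G9a cKO 1.79% of all loci were called, 0.0882% under log2(RPM + 1), 0.464% without the variance trend, 1.13% with precision weights on recovered reads, 3.11% against all 6 controls, and 0.983% to 1.5% without 1 library. In cDKO 6.34% were called, 3.00% under log2(RPM + 1), 2.99% without the trend, and 4.05% to 4.99% without 1 library. Between controls 3.87% were called, 1.09% and 0.283% under the same settings. In the difference 1.08% were called, 0.265%, 0.213% and 0.501% under log2(RPM + 1), without trend and with precision weights, and 0.719% to 38.2% without 1 library, the highest without GKAQ control replicate 1. Of the 9 genes, 1 was called in G9a cKO. The count was 0 where loci with a mean under 10 RPM were left out, which removes Cbx3 by construction. It was also 0 under log2(RPM + 1), with precision weights, with only the compared groups, with the title number as replicate block and against all 6 controls without the library labelled G9a cKO replicate 2 (a setting chosen after seeing the data), and 0 to 1 without 1 library. In cDKO 1 was called, 2 against all 6 controls, and 1 to 2 without 1 library. Between controls 1 was called, and 0 under log2(RPM + 1). In the difference 0 were called, and 0 to 1 without 1 library.

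For H3K9me2 in G9a cKO 4730 windows were called, 32053 over all windows of the table, 1925 with a read required in every library, 8144 after centring, 0 without the trend (48407 at unadjusted p under 0.05) and 0 to 13614 without 1 library. Of the 67 windows 1 was called, 3 over all windows, 3 after centring, 0 without the trend and 0 to 2 without 1 library. In cDKO 0 were called, 20532 over all windows and 0 to 1300 without 1 library, and of the 67 windows 3 over all windows. A window without reads is given a value that depends on library depth, and depth differs between the groups. The cause of the other shifts was not tested. TMM scaling and the 2 tests for raw counts, which had been foreseen, were not run, since the deposited values are log2. For cDKO and H3K9me2 no paired analysis was possible because their groups share fewer than 2 numbers in the titles. The GKAO controls and G9a cKO libraries share 2 title numbers, whose meaning the labels do not give, and the number was fitted as a replicate block within these 6 libraries. Under it 1.45% of loci were called, and Cbx3 (2.03, limma, adjusted p = 0.192) was not. Deviations from the group means correlated at 0.011 to 0.11 between controls and mutants of the same number (4 pairs) and at -0.12 to 0.0027 between those of different numbers (5 pairs), over 9091 loci. Depth limits Kdm4c, Cbx3 and Ehmt2, which have 0 to 30 reads per library, most.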
